A study of Mus musculus with 32 samples.

Results

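Telomere attachment and nuclear envelope genes are described here: 10 genes, chosen by symbol from a list of proteins that hold meiotic telomeres at the nuclear envelope, of the 20368 genes in the juvenile gene table. The symbols were matched to Ensembl identifiers through GENCODE, and all 10 genes were found in every table. RNA was measured by poly-A sequencing of germ cells released from the testes of individual male C57BL/6J mice, at 6 ages counted in days post-partum (dpp), 8, 10, 12, 14, 16 and 18, across the first wave of spermatogenesis. Group sizes were 5 mice per age from 10 to 18 dpp and 3 mice at 8 dpp, so 28 mice in all, and each mouse was a sample of its own. The authors sampled 5 mice at 8 dpp and left out those that matched the others of that age poorly, likely for too few cells. The 3 mice kept at 8 dpp were thus selected for likeness to each other. A separate set of 4 samples held pachytene and diplotene spermatocytes enriched by sedimentation from adult male C57BL/6J mice, each sample pooled from 6 mice aged 9 weeks, and these samples are called adult pachytene here. Levels are given in TPM (a share of all transcripts that accounts for their length), and changes between ages as differences of log2(TPM + 1).

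In meiotic prophase, telomeres move to the inner nuclear membrane, where the TERB1-TERB2-MAJIN complex takes over the chromosome end from the shelterin protein TRF1 and fixes it to the membrane. SUN1 spans the inner membrane and joins KASH5 in the outer membrane, and KASH5 binds the dynein motor in the cytoplasm, which pulls chromosome ends along the envelope and helps homologs to find each other. The kinase activator Speedy A works with CDK2 at telomeres, and the nuclear lamina beneath the membrane is rebuilt in spermatocytes with a short, meiosis-specific A-type lamin.

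The telomere side of the list held 5 genes. Terb1 (ENSMUSG00000052616, chr8:104446719-104509910, minus strand, GRCm38), Terb2 (ENSMUSG00000027229, chr2:122186272-122206397, plus strand) and Majin (ENSMUSG00000024786, chr19:6184388-6224225, plus strand) encode the attachment complex. Terf1 (ENSMUSG00000025925, chr1:15805646-15844052, plus strand) encodes TRF1, the shelterin protein on double-stranded telomeric DNA, and Spdya (ENSMUSG00000052525, chr17:71552061-71589533, plus strand) encodes Speedy A. The envelope side held the inner membrane genes Sun1 (ENSMUSG00000036817, chr5:139200637-139249840, plus strand) and Sun2 (ENSMUSG00000042524, chr15:79724070-79742536, minus strand). It also held the outer membrane gene Ccdc155, which encodes KASH5 (ENSMUSG00000038292, chr7:45183624-45204892, minus strand), and the lamin genes Lmnb1 (ENSMUSG00000024590, chr18:56707813-56753424, plus strand) and Lmna (ENSMUSG00000028063, chr3:88480147-88509956, minus strand). Terb2 reached 3 TPM in 25 of the 28 mice, and each of the other genes did so in all 28.

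Before any comparison, the cells in the libraries are described by marker genes. The 8 Sertoli cell markers (supporting cells of the tubule) summed to 7135, 7805 and 6932 TPM in the mice of 8 dpp, and to 3279, 3229, 3369, 4106 and 4195 TPM in the mice of 18 dpp. Clusterin (Clu) was the most abundant of them, at 5377 TPM on average at 8 dpp, and no Sertoli marker was at 0. The labelled germ cell samples thus held RNA of Sertoli markers at every age. The 8 spermatogonium markers averaged a sum of 1181 ± 76.6 TPM (SD, n = 3) in the youngest mice and of 570.4 ± 97.6 TPM (SD, n = 5) in the oldest, with Uchl1 the most abundant at both ages. The 8 early spermatocyte markers summed to 398 ± 81.4 TPM in the youngest and to 1457 ± 59.1 TPM in the oldest, with Sycp3, a part of the chromosome axis, the most abundant. The 7 late spermatocyte markers summed to 53.8, 46.8 and 56.5 TPM in the mice of 8 dpp, where Pgk2 was at 0 in all 3 mice. At 18 dpp these late markers summed to 4626, 4656 and 4502 TPM in mice 1 to 3 but to 2673 and 2547 TPM in mice 4 and 5, with the lactate dehydrogenase gene Ldhc the most abundant.

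Mice 4 and 5 of 18 dpp therefore stood apart from mice 1 to 3 of the same age, with lower late spermatocyte sums and higher sums of Sertoli, spermatogonium, peritubular, Leydig, endothelial and macrophage markers. Peritubular markers summed to 1006 and 1034 TPM in mice 4 and 5, against 586, 524 and 554 TPM in mice 1 to 3. Leydig markers summed to 472 and 325 TPM, against 184, 186 and 169 TPM, and endothelial markers to 55.0 and 65.2 TPM, against 31.8, 37.9 and 35.3 TPM. Macrophage markers summed to 83.3 and 95.3 TPM, against 55.4, 56.1 and 48.9 TPM, and red blood cell markers overlapped. The spermatogonium sum was 662 and 691 TPM in mice 4 and 5, against 488, 503 and 509 TPM in mice 1 to 3. Of the 10 genes, 4 were higher in each of mice 1 to 3 than in mice 4 and 5: Terb1, Terf1, Spdya and Ccdc155. Majin, Sun2 and Lmnb1 were lower in each of mice 1 to 3. Lmna was lower in them as well but only just, at 44.37 TPM in mouse 1 and 44.4 TPM in mouse 5. Terb2 and Sun1 overlapped. How many of all genes divided these mice in the same way was not counted. The changes of the 10 genes to 18 dpp and the counts of the gene lists are given with all 5 mice and also without mice 4 and 5, an alternative chosen after the values were seen.

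**Figure D1:**
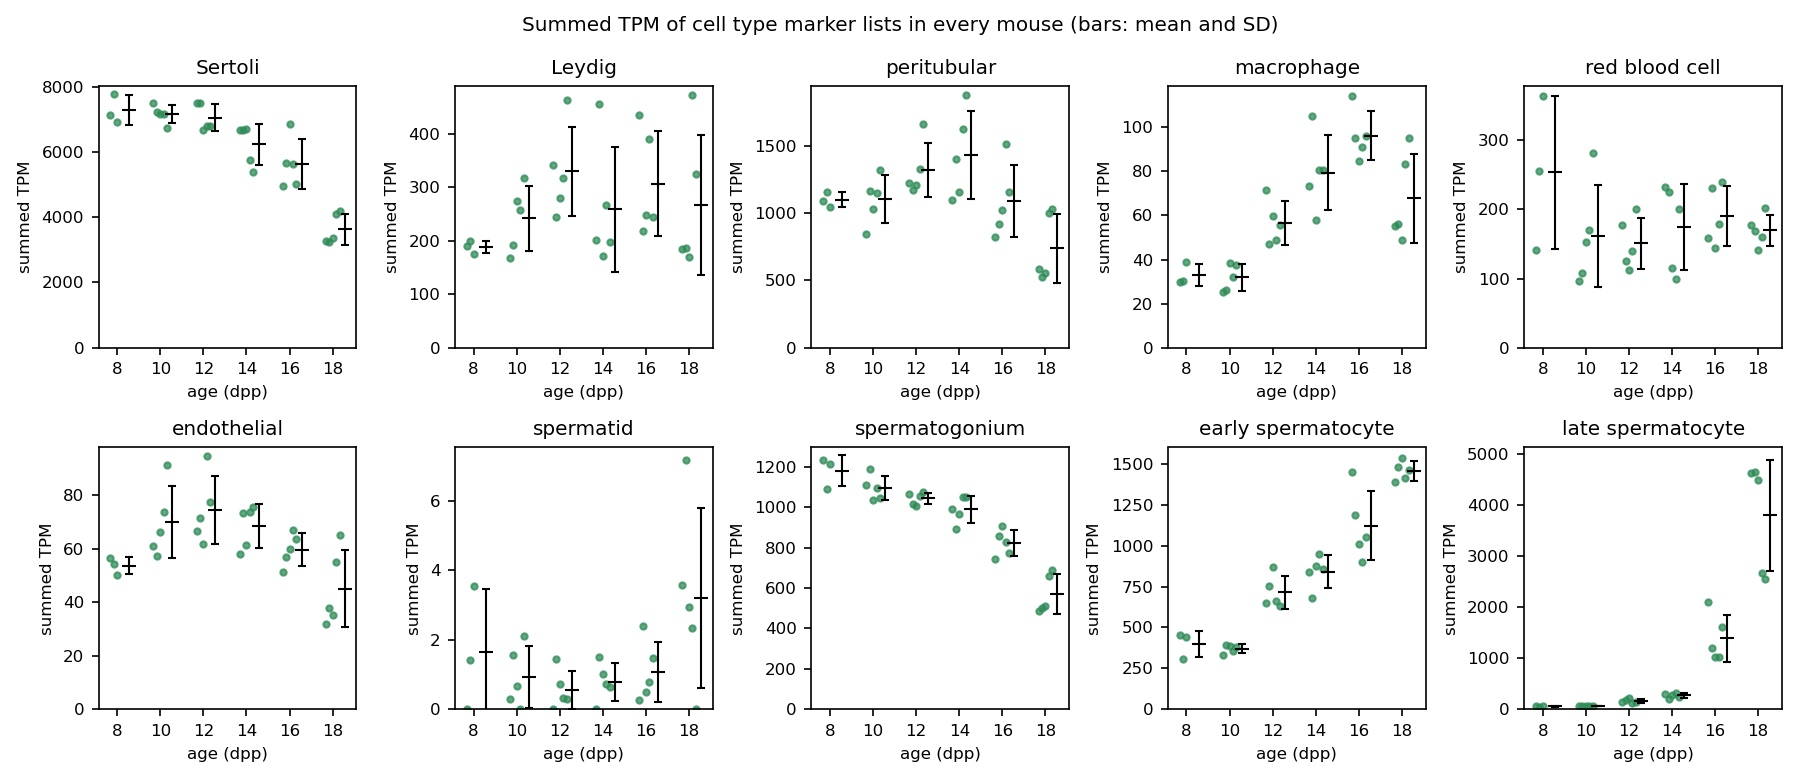
Summed TPM of each cell type marker list in every mouse of each age in dpp (points), with the mean and SD as bars beside them. The late spermatocyte list reached 4656 TPM in mouse 2 of 18 dpp and 2547 TPM in mouse 5 of the same age.

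Across the 6 ages, the levels of the 10 genes took different courses. Spdya, Ccdc155, Terb1, Terb2 and Majin started low and rose, Sun1 and Terf1 started at a higher level and rose by less, Sun2 peaked in the middle ages, and Lmnb1 and Lmna fell. All 10 genes differed among the 6 ages in limma's moderated F test (adjusted p from 3.3e-16 for Ccdc155 to 0.00035 for Lmna), in a series where 77.6% of the 20368 genes did. In RNA from a mixture of cells, fewer cells of a type and less RNA per cell cannot be told apart. The markers of Sertoli cells, spermatogonia and spermatocytes moved over the same ages. Peritubular markers averaged sums of 1101, 1104, 1322, 1436, 1092 and 741 TPM from 8 to 18 dpp. They were thus highest at 14 dpp, as Sun2 was (111 ± 4.27 TPM). The part of all these markers in the changes of these 10 genes was not tested.

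**Figure D2:**
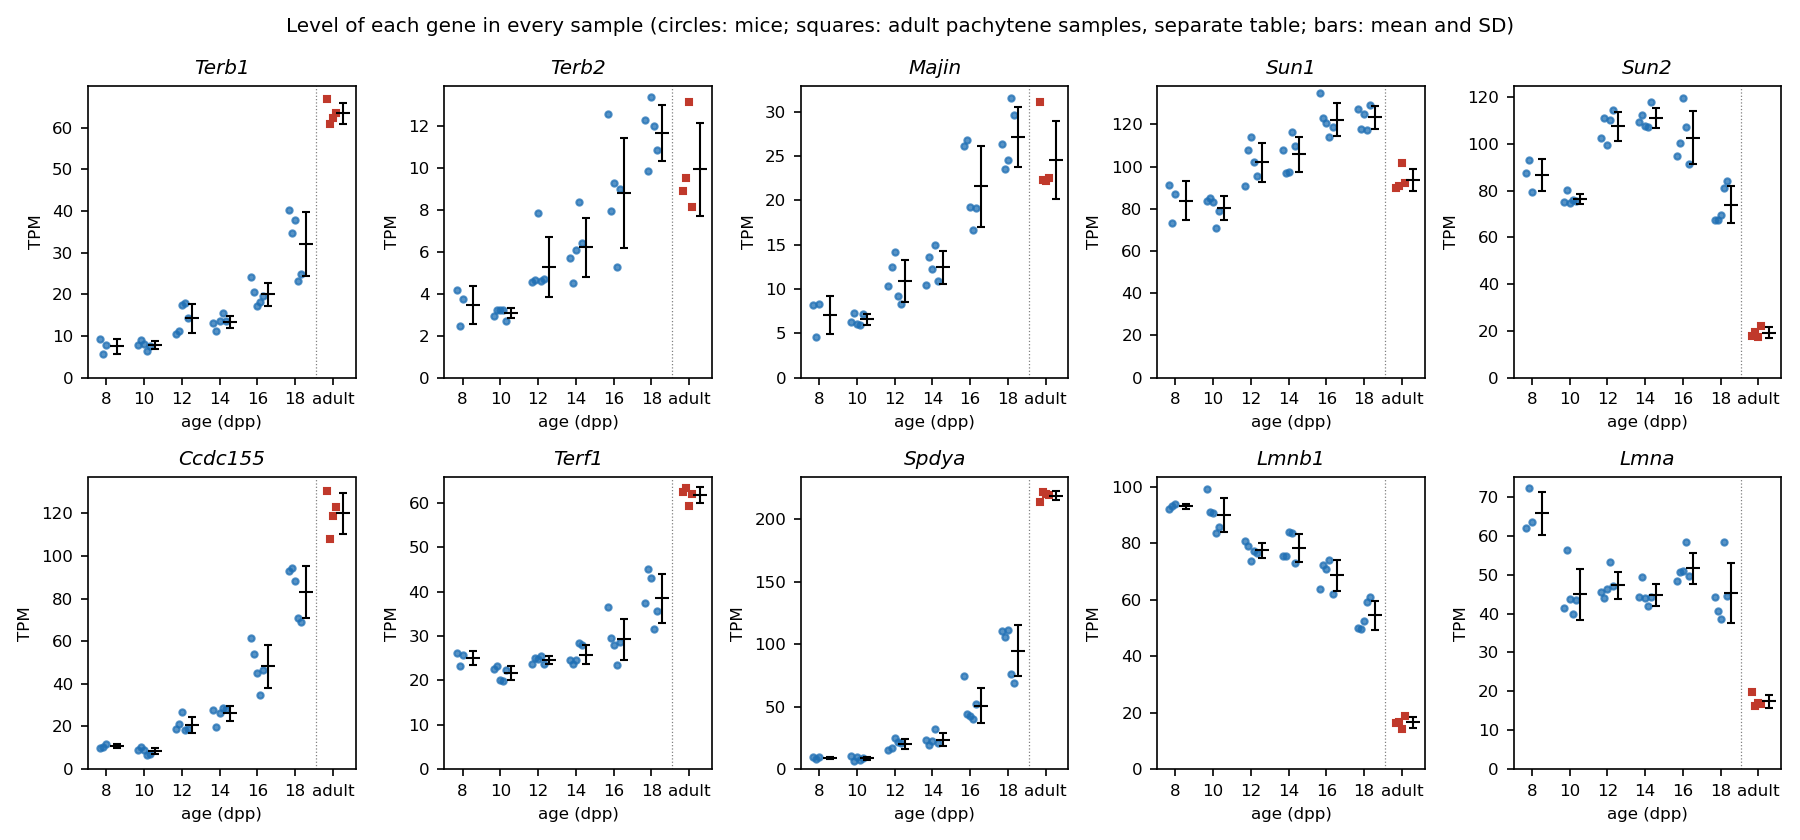
TPM of each gene in every mouse by age in dpp (circles) and in the 4 adult pachytene samples (squares, from a table normalized on its own), with mean and SD as bars. Spdya ran from 7.86 to 9.60 TPM at 8 dpp and from 69.1 to 112 TPM at 18 dpp, while Lmnb1 ran from 92.1 to 93.9 TPM and from 49.7 to 60.9 TPM.

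The order of the levels in TPM changed with age. At 8 dpp the order was Lmnb1 (93.1 ± 0.893 TPM), Sun2 (86.7 ± 6.74), Sun1 (83.8 ± 9.28), Lmna (65.9 ± 5.54), Terf1 (25.1 ± 1.62), Ccdc155 (10.7 ± 0.887), Spdya (8.92 ± 0.932), Terb1 (7.50 ± 1.81), Majin (7.01 ± 2.14) and Terb2 (3.46 ± 0.888; SD, n = 3). Neighbours in that order whose mice overlapped were Lmnb1 with Sun2, Sun2 with Sun1, Spdya with Terb1, and Terb1 with Majin. At 18 dpp the order was Sun1 (123 ± 5.36 TPM), Spdya (94.7 ± 20.4), Ccdc155 (83.2 ± 12.2), Sun2 (73.9 ± 7.98), Lmnb1 (54.5 ± 5.27), Lmna (45.3 ± 7.80), Terf1 (38.6 ± 5.54), Terb1 (32.1 ± 7.67), Majin (27.2 ± 3.40) and Terb2 (11.7 ± 1.36; SD, n = 5). Sun1 stood above all mice of Spdya and Terb2 below all mice of Majin. Of the other neighbours, only Sun2 and Lmnb1 did not overlap. Terb2 was the lowest of the 10 genes in TPM at every age, as a total over coding and non-coding transcripts.

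The comparison of 18 dpp with 8 dpp asks what differs between the end and the start of this span. All 10 genes passed the threshold: 7 were higher at 18 dpp, where 31.8% of the 20368 genes were called higher, and 3 were lower, where 36.3% were called lower. Spdya and Ccdc155 rose the most of the 10, the attachment complex genes rose together by smaller steps, and both lamin genes and Sun2 fell. The median change of the 10 genes was 1.06 on the log2 scale, and that of all genes was -0.09. Of all calls 46.7% were higher, against 55.9% with median-of-ratios factors and 37.7% with quantile normalization.

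Spdya, the activator of CDK2, was at 9.31, 7.86 and 9.60 TPM in the mice of 8 dpp and at 110.4, 106, 112, 76.2 and 69.1 TPM in the mice of 18 dpp. Every mouse of 18 dpp was above every mouse of 8 dpp, and mice 4 and 5 were the lowest of their age. Its log2 change was 3.25 (SE 0.194, adjusted p 6.5e-14), a ratio of mean TPM of 10.6, and it ranked 832 by size among all genes with a positive change. Ccdc155, whose product KASH5 ties the telomere to dynein, was at 10.1, 10.3 and 11.7 TPM at 8 dpp and at 92.8, 94.6, 88.4, 71.0 and 69.1 TPM at 18 dpp. The ages did not overlap, and its log2 change was 2.84 (SE 0.161, adjusted p 2.2e-14), a ratio of 7.78. Without mice 4 and 5 the changes were 3.48 for Spdya and 2.99 for Ccdc155.

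Terb1, which binds TRF1 and starts the attachment complex, was at 9.19, 5.59 and 7.71 TPM at 8 dpp and at 40.1, 34.6, 37.7, 23.2 and 24.8 TPM at 18 dpp. The ages did not overlap, with mice 1 to 3 of 18 dpp above mice 4 and 5. Its log2 change was 1.95 (SE 0.18, adjusted p 3.0e-10). Terb2, which bridges TERB1 and MAJIN, was at 4.18, 2.47 and 3.74 TPM at 8 dpp and at 12.3, 9.86, 13.4, 12.0 and 10.85 TPM at 18 dpp. Its 5 mice of 18 dpp lay close together and above all mice of 8 dpp, with a log2 change of 1.52 (SE 0.194, adjusted p 1.0e-07). Majin, the membrane-bound part of the complex, was at 8.23, 4.54 and 8.27 TPM at 8 dpp and at 26.4, 23.5, 24.6, 31.6 and 29.7 TPM at 18 dpp. Here mice 4 and 5 were the highest of their age, the opposite of Terb1, and the log2 change was 1.84 (SE 0.176, adjusted p 5.2e-10). Mouse 2 was the lowest of the 8 dpp mice for all 3 genes of the complex, and also for Spdya, Terf1 and Sun1. Its early spermatocyte marker sum was also the lowest, at 305 TPM against 450 and 440 TPM in mice 1 and 3. Its Sertoli sum was the highest, at 7805 TPM, and the part of these markers was not tested.

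Terf1 started at a higher level than the complex genes, at 26.3, 23.2 and 25.7 TPM, and was at 37.5, 45.1, 43.1, 31.6 and 35.6 TPM at 18 dpp. The ages did not overlap and the log2 change was 0.59 (SE 0.108, adjusted p 2.4e-05). Sun1, the SUN protein that holds meiotic telomeres, was at 91.2, 73.4 and 86.9 TPM at 8 dpp and at 127, 118, 125, 117 and 129 TPM at 18 dpp. All 5 later mice were above the 3 earlier mice, with a log2 change of 0.56 (SE 0.0805, adjusted p 8.2e-07). Sun2, its paralog, was at 87.6, 93.0 and 79.6 TPM at 8 dpp and at 67.6, 67.5, 69.4, 81.2 and 83.9 TPM at 18 dpp. Mice 1 to 3 of 18 dpp were below all mice of 8 dpp and mice 4 and 5 overlapped them. The change of Sun2 was -0.23 (SE 0.0797, adjusted p 0.012), and -0.34 without mice 4 and 5. Leaving out 8 dpp mouse 2 ended that call (-0.18, adjusted p 0.085), as did fitting only the 2 ages (-0.23, adjusted p 0.071) and rescaling TPM by median-of-ratios factors (-0.06, adjusted p 0.46). Over all its refits the adjusted p of Sun2 ran from 0.00028 to 0.46.

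Lmnb1, the B-type lamin of somatic and germ cell nuclei, was at 92.1, 93.3 and 93.9 TPM at 8 dpp and at 49.9, 49.7, 52.5, 59.2 and 60.9 TPM at 18 dpp. Every later mouse was below every earlier mouse, and Lmnb1 fell by 0.77 on the log2 scale (SE 0.0731, adjusted p 5.3e-10). Lmna, which encodes the A-type lamins, was at 61.9, 72.2 and 63.5 TPM at 8 dpp and at 44.4, 40.6, 38.6, 58.5 and 44.4 TPM at 18 dpp. The ages did not overlap, although mouse 4 of 18 dpp came close, and Lmna fell by 0.54 (SE 0.107, adjusted p 7.0e-05). Median-of-ratios factors moved the median change of all genes by 0.14 and quantile normalization by -0.17. Relative to the median of all genes, the changes were 3.34 for Spdya, 2.93 for Ccdc155, 0.65 for Sun1, -0.14 for Sun2, -0.45 for Lmna and -0.67 for Lmnb1. Without mice 4 and 5 of 18 dpp the changes from 8 dpp were 2.20 for Terb1, 1.54 for Terb2, 1.73 for Majin, 0.72 for Terf1, 0.56 for Sun1, -0.66 for Lmna and -0.86 for Lmnb1. In that fit all 10 genes passed, as did 14370 of all 20368 genes.

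**Figure D3:**
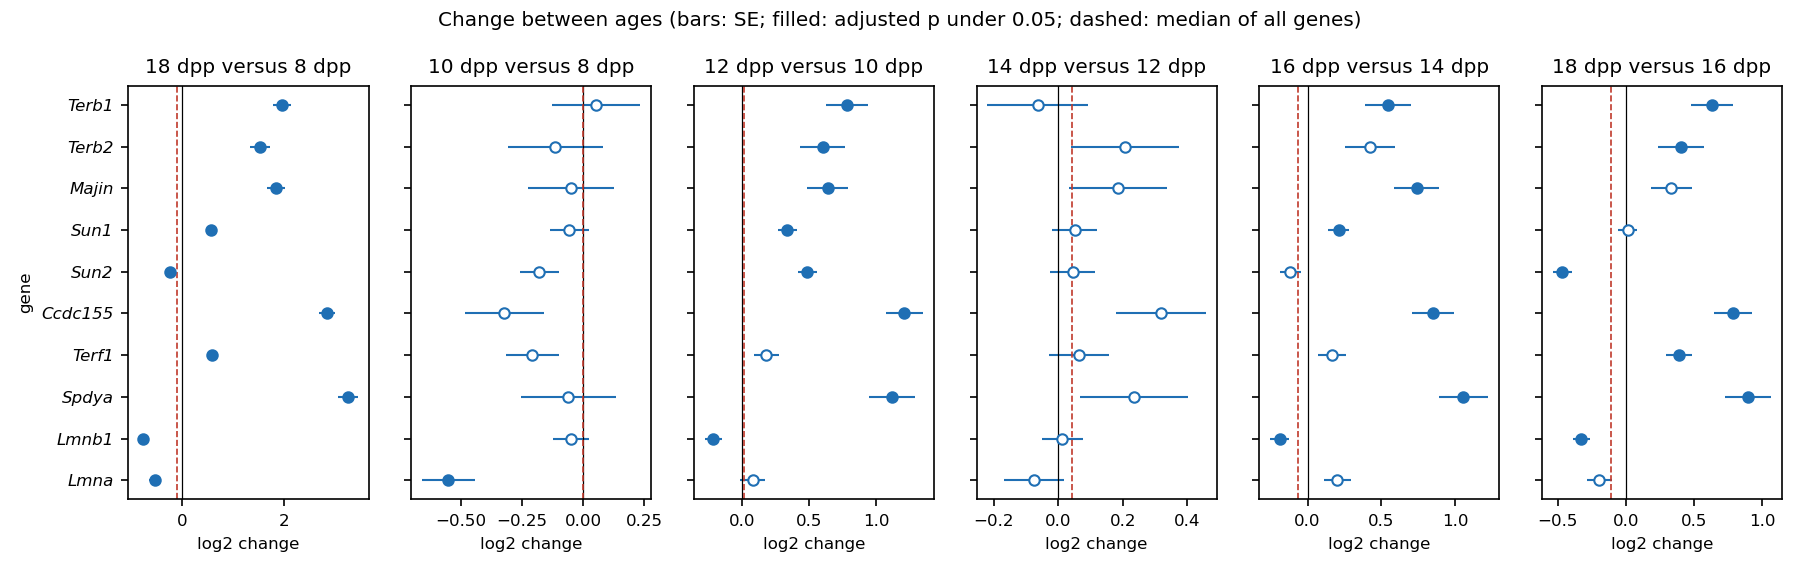
Log2 change of each gene (points, with SE as bars) between the ages named above each panel, filled where the adjusted p was under 0.05, with the median of all genes as a dashed line. Spdya changed by 3.25 and Lmnb1 by -0.77 between 8 and 18 dpp, and no point was filled between 12 and 14 dpp.

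The comparisons of neighbouring ages ask when within the span these changes fell. They share their mice with each other and with the comparison above. Between 8 and 10 dpp 1 of the 10 genes passed, Lmna, in a comparison where 1.20% of all genes were called. Lmna was at 61.9, 72.2 and 63.5 TPM at 8 dpp and at 41.4, 56.3, 43.7, 39.8 and 43.4 TPM at 10 dpp, so that mouse 2 of 10 dpp stood closest to the earlier age. It fell by 0.55 (SE 0.107, adjusted p 0.0068), and thus by as much as over the whole span. The call ended without 8 dpp mouse 2 (-0.48, adjusted p 0.069) and with only the 2 ages in the fit (-0.55, adjusted p 0.091), in a range from 0.00097 to 0.091 over all refits. For each of the other 9 genes the ranges of 8 and 10 dpp overlapped. For Lmnb1 no mouse of 10 dpp lay within the range of 8 dpp: 1 was above it and 4 were below. The 245 genes called in all became 106, 140 and 121 without 8 dpp mouse 1, 2 or 3, and 398 without mice 4 and 5 of 18 dpp.

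Between 10 and 12 dpp 7 of the 10 genes were higher at 12 dpp (12.0% of all genes were called higher), 1, Lmnb1, was lower (9.39% were called lower), and Terf1 and Lmna did not pass. Of all calls 56.2% were higher, against 48.6% with median-of-ratios factors and 52.1% with quantile normalization. Ccdc155 was at 8.95, 10.2, 9.10, 6.62 and 7.28 TPM at 10 dpp and at 18.7, 21.3, 26.9, 18.1 and 19.0 TPM at 12 dpp, and Spdya was at 10.1, 6.67, 9.53, 7.50 and 9.10 TPM and at 15.2, 16.9, 24.7, 21.9 and 20.6 TPM. Neither gene overlapped between the ages. The log2 change was 1.21 for Ccdc155 (SE 0.139, adjusted p 3.9e-07) and 1.12 for Spdya (SE 0.168, adjusted p 2.0e-05). The attachment complex moved as a group, by 0.78 for Terb1 (SE 0.156, adjusted p 0.00056), 0.64 for Majin (SE 0.152, adjusted p 0.0031) and 0.60 for Terb2 (SE 0.168, adjusted p 0.010), each with 5 of 5 mice of 12 dpp above all mice of 10 dpp. For Terb2, mouse 3 of 12 dpp was at 7.84 TPM and the other mice between 4.56 and 4.72 TPM.

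The inner membrane genes rose in the same interval. Sun2 was at 75.3, 80.2, 74.8, 76.0 and 75.7 TPM at 10 dpp and at 102, 111, 99.7, 110.4 and 114 TPM at 12 dpp, and Sun1 was at 83.6, 85.2, 83.3, 71.1 and 79.1 TPM and at 90.8, 108, 114, 102 and 95.6 TPM. Neither overlapped. Sun2 rose by 0.49 (SE 0.069, adjusted p 8.8e-06) and Sun1 by 0.34 (SE 0.0697, adjusted p 0.00080), and the difference between these changes was not tested. Lmnb1 fell by 0.21 (SE 0.0633, adjusted p 0.016), from 90.1 ± 5.93 to 77.5 ± 2.64 TPM (SD, n = 5), with no overlap. Without 10 dpp mouse 1, the highest of its age at 99.1 TPM, that call ended (-0.18, adjusted p 0.060, in a range from 0.0042 to 0.060 over all refits). Terf1 (21.6 ± 1.58 and 24.6 ± 0.822 TPM) and Lmna (44.9 ± 6.57 and 47.2 ± 3.54 TPM) were the genes that did not pass, although all 5 mice of 12 dpp were above all mice of 10 dpp for Terf1. With only the 2 ages in the fit, 9 of the 10 genes passed, and 4709 of all 20368 genes did, against 4362 with all ages. Early spermatocyte markers went from 369.5 ± 25.7 to 714 ± 99.1 TPM in sum between these ages, and their part was not tested.

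Between 12 and 14 dpp limma called 0 of the 10 genes, where 0.172% of all genes were called. An unadjusted p under 0.05 was found for 1 of the 10 genes and for 1962 of all 20368 genes. The 1 of the 10 was Ccdc155, with 20.8 ± 3.63 TPM in the mice of 12 dpp and 26.1 ± 3.69 TPM in those of 14 dpp (SD, n = 5). Terb1 was at 14.2 ± 3.45 and 13.3 ± 1.47 TPM, Sun1 at 102 ± 9.34 and 106 ± 8.40 TPM, Sun2 at 108 ± 6.23 and 111 ± 4.27 TPM and Lmnb1 at 77.5 ± 2.64 and 78.3 ± 5.05 TPM, each a difference smaller than the spread between mice. Spdya was at 19.9 ± 3.84 and 23.6 ± 5.13 TPM. The number of genes called in all, 35, rested on single mice: it was 4, 129, 2 and 14 without 12 dpp mouse 1, 3, 4 or 5, and 2, 90, 9, 2 and 3 without 14 dpp mouse 1, 2, 3, 6 or 7. Of the 35 calls 91.4% were higher, and with median-of-ratios factors 81.2% of 16 calls were.

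Between 14 and 16 dpp the rise resumed: 5 of the 10 genes were higher at 16 dpp (12.7% of all genes were called higher) and 1 was lower (11.3% were called lower). Spdya was at 23.0, 19.3, 22.8, 32.4 and 20.5 TPM at 14 dpp and at 74.4, 43.8, 42.5, 40.1 and 52.3 TPM at 16 dpp, and Ccdc155 was at 27.6, 19.7, 26.6, 28.7 and 28.1 TPM and at 61.4, 54.1, 44.9, 34.5 and 46.5 TPM. Mouse 1 of 16 dpp was the highest for both, and neither gene overlapped. Spdya rose by 1.05 (SE 0.168, adjusted p 3.2e-05), Ccdc155 by 0.85 (SE 0.139, adjusted p 4.6e-05), Majin by 0.74 (SE 0.152, adjusted p 0.00071) and Terb1 by 0.55 (SE 0.156, adjusted p 0.012). Majin was at 10.5, 13.6, 12.2, 14.9 and 10.9 TPM at 14 dpp and at 26.1, 26.9, 19.2, 16.6 and 19.1 TPM at 16 dpp, with mice 1 and 2 of 16 dpp set above the other 3. Terb2, the third gene of the complex, was at 6.22 ± 1.40 and 8.83 ± 2.63 TPM and did not pass.

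Sun1 rose by 0.21 between 14 and 16 dpp (SE 0.0697, adjusted p 0.029), with 4 of 5 mice of 16 dpp above all mice of 14 dpp. Its call ended without 14 dpp mouse 2 (0.18, adjusted p 0.085) or mouse 3 (0.18, adjusted p 0.080), without 16 dpp mouse 1 (0.17, adjusted p 0.10) or mouse 2 (0.21, adjusted p 0.051), and with no filter on low values (0.21, adjusted p 0.074), in a range from 0.0045 to 0.10 over all refits. Lmnb1 fell by 0.19 (SE 0.0633, adjusted p 0.030), with 4 of 5 mice of 16 dpp below all mice of 14 dpp. That call ended without 14 dpp mouse 3 (-0.16, adjusted p 0.082) or mouse 6 (-0.17, adjusted p 0.078), without 16 dpp mouse 1 (-0.16, adjusted p 0.091) or mouse 5 (-0.15, adjusted p 0.10), and under 5 other settings, in a range from 0.0089 to 0.13 over all refits. Both changes were thus close to the threshold. Of all calls between these ages 53.0% were higher, against 66.3% with median-of-ratios factors and 41.6% with quantile normalization. Late spermatocyte markers went from 267 ± 52.7 to 1388 ± 463 TPM in sum, the highest in mouse 1 of 16 dpp (2094 TPM), and their part was not tested.

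Between 16 and 18 dpp 5 of the 10 genes were higher (23.4% of all genes were called higher) and 2 were lower (30.6% were called lower). Spdya rose by 0.90 (SE 0.168, adjusted p 8.5e-05), Ccdc155 by 0.78 (SE 0.139, adjusted p 4.6e-05) and Terb1 by 0.63 (SE 0.156, adjusted p 0.0013). Ccdc155 did not overlap between the ages. For Spdya 4 of 5 mice of 18 dpp were above all mice of 16 dpp. Mouse 5 of 18 dpp, at 69.1 TPM, was below mouse 1 of 16 dpp, at 74.4 TPM. Terb1 was at 24.2, 20.4, 17.3, 18.2 and 19.7 TPM at 16 dpp, so that 4 of 5 mice of 18 dpp were above all of them and mouse 4, at 23.2 TPM, was not. Terf1 rose by 0.39 (SE 0.0933, adjusted p 0.0011), its 1 called step between neighbouring ages, with 3 of 5 mice of 18 dpp above all mice of 16 dpp. Sun2 fell by 0.47 (SE 0.069, adjusted p 5.7e-06), from 94.9, 100.2, 119.6, 107 and 91.3 TPM at 16 dpp, and Lmnb1 fell by 0.33 (SE 0.0633, adjusted p 0.00011). For Sun2 and Lmnb1 all 5 mice of 18 dpp were below every mouse of 16 dpp. Late spermatocyte markers went from 1388 ± 463 to 3801 ± 1090 TPM in sum between these ages. Sertoli markers went from 5634 ± 765 to 3636 ± 474 TPM, and the part of these markers was not tested.

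Without mice 4 and 5 of 18 dpp the changes from 16 dpp were 1.13 for Spdya, 0.94 for Ccdc155, 0.88 for Terb1, 0.51 for Terf1, -0.58 for Sun2 and -0.43 for Lmnb1. In that fit Lmna passed as well (-0.32, SE 0.0893, adjusted p 0.0035), while with all mice it was at 51.6 ± 3.99 TPM at 16 dpp and 45.3 ± 7.80 TPM at 18 dpp and did not pass. Terb2 rose by 0.40 (SE 0.168, adjusted p 0.044), from 12.6, 7.95, 9.31, 5.29 and 9.00 TPM at 16 dpp, and 1 mouse of 18 dpp lay above all of these. The call of Terb2 ended without mice 4 and 5 (0.42, adjusted p 0.074), without 16 dpp mouse 2 (0.38, adjusted p 0.082), 4 (0.25, adjusted p 0.19) or 5 (0.42, adjusted p 0.054), without 18 dpp mouse 1 (0.39, adjusted p 0.082), 3 (0.36, adjusted p 0.10) or 4 (0.39, adjusted p 0.068), and under 4 other settings, in a range from 0.0069 to 0.34 over all refits. Majin (21.6 ± 4.58 and 27.2 ± 3.40 TPM) and Sun1 (122 ± 7.80 and 123 ± 5.36 TPM) did not pass. Majin changed by 0.33 with all mice and by 0.22 without mice 4 and 5, and Sun1 by 0.013 and 0.014. Without those mice neither passed. Of all calls 43.4% were higher, against 63.0% with median-of-ratios factors, which moved the median change of all genes by 0.14. Relative to that median, the changes with all mice were 1.01 for Spdya, 0.90 for Ccdc155, 0.75 for Terb1, 0.52 for Terb2, 0.50 for Terf1, -0.22 for Lmnb1 and -0.36 for Sun2.

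Sun1 and Sun2 can be set against each other within each mouse, since TPM accounts for length. The ratio of Sun1 TPM to Sun2 TPM lay between 0.790 and 1.09 at 8 dpp and between 0.864 and 1.09 at 14 dpp, near equal levels. It lay between 1.01 and 1.42 at 16 dpp and between 1.45 and 1.88 at 18 dpp, so that every mouse of 18 dpp was above every mouse of the earlier ages. In the adult pachytene samples the ratio lay between 4.14 and 5.87. This ratio was formed after the values were seen and was not tested.

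The adult samples show the levels in enriched spermatocytes. They come from a table normalized on its own, so adult TPM is given beside juvenile TPM with no test between them. The order was Spdya (219 ± 3.66 TPM), Ccdc155 (120.1 ± 9.58), Sun1 (93.6 ± 5.37), Terb1 (63.4 ± 2.59), Terf1 (61.8 ± 1.77), Majin (24.5 ± 4.40), Sun2 (19.3 ± 2.20), Lmna (17.5 ± 1.67), Lmnb1 (16.5 ± 1.91) and Terb2 (9.94 ± 2.22; SD, n = 4). Terb1 overlapped Terf1, and among the 4 genes from Majin to Lmnb1 each overlapped the next. Majin did not overlap Terf1, and Lmnb1 did not overlap Terb2. Spdya was at 214, 222, 221 and 219.8 TPM, Terb1 at 66.9, 60.8, 62.3 and 63.5 TPM Terf1 at 62.5, 63.4, 59.3 and 62.1 TPM and Ccdc155 at 131, 108, 119 and 123 TPM, each above all 28 juvenile mice. Sun2 was at 17.9, 19.6, 17.3 and 22.2 TPM, Lmnb1 at 16.4, 16.6, 14.25 and 18.9 TPM and Lmna at 19.9, 16.1, 17.0 and 16.8 TPM, each below all 28 juvenile mice.

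Marker genes were also summed in the adult samples. Late spermatocyte markers summed to 9753 ± 106 TPM (SD, n = 4), with Ldhc at 6852 TPM, and early spermatocyte markers to 1521 ± 69.5 TPM. Spermatogonium markers summed to 32.9 ± 2.08 TPM and Sertoli markers to 366 ± 57.1 TPM, of which Clu made up 313 TPM. The 6 spermatid markers, which belong to cells past meiosis, summed to 1076 ± 144 TPM, with Tnp1 at 273 TPM and no marker at 0. In the mice of 18 dpp they summed to 3.20 ± 2.59 TPM (SD, n = 5). The part of spermatid RNA in the adult levels of the 10 genes was not tested.

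Several of the 10 genes have alternative transcripts, and their shares were compared between 8 and 18 dpp as the percentage of the gene's TPM. The largest shifts were in Lmna. Its transcript Lmna-203 codes for lamin C (1722 coding bases), Lmna-201 for prelamin A (1995 coding bases), and Lmna-202 (1386 coding bases) starts 9995 bases downstream of Lmna-203, within the gene, as the meiotic lamin C2 does. The 20 coding bases that are particular to the start of Lmna-202 (chr3:88493237-88493256) and the last 20 coding bases of the opening exon of Lmna-203 are shown in capitals, each followed by 40 coding bases that both share, since these starts tell the transcripts apart (GENCODE M21, GRCm38, minus strand).
Lmna-202: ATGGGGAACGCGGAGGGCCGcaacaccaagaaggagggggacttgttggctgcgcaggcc
Lmna-203: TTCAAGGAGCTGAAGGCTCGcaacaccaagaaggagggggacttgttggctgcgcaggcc

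Lmna-203 made up 59.9, 64.4 and 65.8% of Lmna TPM in the mice of 8 dpp and 13.9, 24.1, 27.1, 32.4 and 44.4% in the mice of 18 dpp. The ages did not overlap, and mice 1 to 3 of 18 dpp were the lowest. Its share fell by 35.0 points (SE 6.31, adjusted p 0.020) and was the 1 transcript called of the 32 transcripts of these genes tested (adjusted p under 0.05 and at least 20 points), where 2.77% of all 27124 transcripts tested were called. Lmna-202 made up 16.0, 7.76 and 2.38% at 8 dpp and 59.8, 48.8, 42.2, 37.2 and 18.2% at 18 dpp. Every mouse of 18 dpp was above every mouse of 8 dpp, mouse 5 by the least. The difference was 32.5 points with an adjusted p of 0.078, so it did not pass with all mice.

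These calls changed with single mice and, as given further below, with mouse number as a block. Lmna-202 passed without 18 dpp mouse 5 (38.3 points, adjusted p 0.020) and without mice 4 and 5 (41.6 points, adjusted p 0.022). The call of Lmna-203 ended without 8 dpp mouse 1 (-36.7 points, adjusted p 0.056), 2 (-34.5 points, adjusted p 0.071) or 3 (-33.8 points, adjusted p 0.070) and without 18 dpp mouse 3 (-34.7 points, adjusted p 0.052). Over all refits the adjusted p ran from 0.020 to 0.21 for Lmna-202 and from 0.0078 to 0.071 for Lmna-203. In TPM, Lmna-203 went from 41.8 ± 4.71 (SD, n = 3) to 13.0 ± 6.01 (SD, n = 5), Lmna-202 from 5.67 ± 4.20 to 18.5 ± 6.90 and Lmna-201 from 13.3 ± 1.86 to 8.91 ± 1.54. At 10 dpp Lmna-202 was listed at 0 in mice 1 and 4 and reached 9.75 TPM in mouse 2. The TPM of Lmna-202 overlapped between the ages (9.91 TPM in mouse 1 of 8 dpp, 8.07 TPM in mouse 5 of 18 dpp), and the TPM of single transcripts was not tested. RSEM divides reads of shared exons between transcripts, and these values carry that estimate's error, which the tables do not give.

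**Figure D4:**
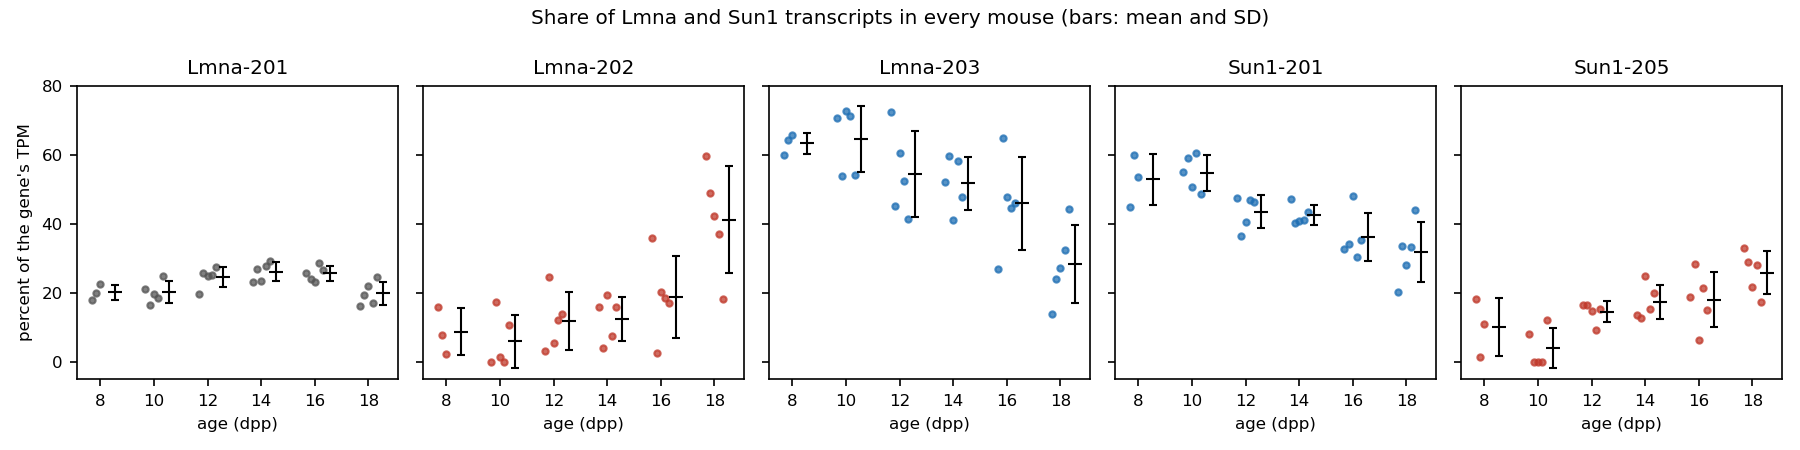
Percentage of the gene's TPM held by Lmna-201, Lmna-202, Lmna-203, Sun1-201 and Sun1-205 in every mouse (points) by age in dpp, with mean and SD as bars. Lmna-202 made up 2.38 to 16.0% at 8 dpp and 18.2 to 59.8% at 18 dpp, where Lmna-203 fell to 13.9 to 44.4%.

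For Sun1, 9 transcripts reached a mean of 1 TPM at some age. Sun1-201 (2739 coding bases) made up 45.0, 60.0 and 53.7% of Sun1 TPM at 8 dpp and 20.3, 33.7, 28.1, 33.3 and 44.2% at 18 dpp, without overlap. Sun1-205 (2370 coding bases), which lacks 3 coding exons of Sun1-201 (chr5:139229753-139229944, chr5:139230773-139230838 and chr5:139231127-139231237, 369 bases in all), made up 18.3, 1.35 and 10.9% at 8 dpp and 32.9, 29.0, 21.7, 28.2 and 17.4% at 18 dpp. Mouse 1 of 8 dpp overlapped the later mice. Neither share passed: the difference was -21.0 points for Sun1-201 (adjusted p 0.074, and 0.038 at -24.0 points without 18 dpp mouse 5) and 15.7 points for Sun1-205 (adjusted p 0.11). Over all refits the adjusted p ran from 0.038 to 0.21 for Sun1-201 and from 0.080 to 0.27 for Sun1-205. In TPM, Sun1-201 was at 43.9 ± 2.78 at 8 dpp and 39.4 ± 11.3 at 18 dpp, and Sun1-205 at 9.04 ± 7.85 and 31.7 ± 7.43.

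For Sun2, 7 transcripts reached a mean of 1 TPM at some age, and 4 of them were protein coding. Sun2-201 held 47.2% of Sun2 TPM at 8 dpp and 53.0% at 18 dpp, and the coding transcript ENSMUST00000100439 held 32.8 and 30.5%, and neither share passed. Terf1 had 1 transcript. Lmnb1 and Ccdc155 had 1 protein-coding transcript each, which held at least 98.8% and 94.0% of the gene's TPM on average at each age. The 1 protein-coding transcript of Terb2 held 100% at 8 dpp and 98.4% at 18 dpp, but 79.4% at 14 dpp. There the non-coding Terb2-202 held 21.1, 0, 24.3, 25.9 and 31.8% in mice 1, 2, 3, 6 and 7, and it held 23.2% in mouse 3 of 16 dpp. For Terb1, the 1 protein-coding transcript of 4, Terb1-201, held 18.9% of the gene's TPM at 8 dpp and 25.4% at 18 dpp, and the non-coding transcript ENSMUST00000162014 held 58.2 and 52.8%. In TPM, Terb1-201 was at 1.37 ± 0.617 at 8 dpp and 7.98 ± 1.87 at 18 dpp, below the coding transcript of Terb2 at each age on average (3.46 ± 0.888 and 11.5 ± 1.32 TPM at these ages). Majin had a transcript of 768 coding bases and another of 372, which held 59.2 and 40.8% at 18 dpp. All 4 transcripts of Spdya were protein coding, and the most abundant (ENSMUST00000167641) held 78.4% at 8 dpp and 74.9% at 18 dpp. Between 10 and 12 dpp limma called 0 transcripts of the 10 genes, where 0.0268% of 26152 transcripts were called. The 7 transcripts called in all became 1 without 10 dpp mouse 1 and without each mouse of 12 dpp, and 3 without 10 dpp mouse 2. An unadjusted p under 0.05 was found for 4 of the 26 transcripts of the 10 genes tested and for 2536 of all 26152. Sun1-201 and Sun1-205, shares of the same gene, were among the 4.

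Promoters were looked at because several of these genes rose together. RefSeq promoters (GRCm38.p6, 250 bases before to 50 after a start) were found for 5 of the 10 genes: Lmna and Sun1 with 2 each, and Sun2, Terb1 and Spdya with 1 each. Terb2, Majin, Ccdc155, Terf1 and Lmnb1 had no entry in the promoter set searched, and whether RefSeq itself lacks them was not checked. Each was searched on both strands for 7 motifs: AACNG (MYB core), GTTGCC (RFX), CNCCTCAG (STRA8-MEIOSIN), CACGTG (E-box), GCGGGAA (E2F), TGCGCA (NRF1 core) and TGACG (CRE core). These were held by 80.3, 12.5, 7.94, 7.15, 4.60, 7.76 and 20.8% of all 32851 promoters. The letters of CNCCTCAG were found in the promoter at the start of Lmna-202 (chr3:88493263-88493562), 32 bases before the start, in that of Spdya and in the upstream one of Sun1 (chr5:139200387-139200686). The promoter at the upstream start of Lmna (chr3:88503303-88503602) held none of the 7, nor did that of Sun2. The upstream promoter of Sun1 held TGACG at 2 places, and the other (chr5:139214908-139215207) held AACNG at 1 place. Terb1 (chr8:104509838-104510137) held TGACG at 1 place, and Spdya (chr17:71551811-71552110) held AACNG at 4 places. The sequences are shown with matches in capitals, for both starts of Lmna because their transcripts took different courses and for Terb1 and Spdya as genes that rose. Lmna and Terb1 lie on the minus strand and Spdya on the plus strand, each written 5′ to 3′. A match describes letters in a window and not a bound site.
Lmna, upstream start: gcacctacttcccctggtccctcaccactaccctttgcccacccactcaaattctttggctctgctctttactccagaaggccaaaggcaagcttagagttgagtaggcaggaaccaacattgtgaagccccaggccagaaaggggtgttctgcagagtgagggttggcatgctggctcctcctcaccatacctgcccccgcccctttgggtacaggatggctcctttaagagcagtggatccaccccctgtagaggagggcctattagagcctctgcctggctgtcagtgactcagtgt
Lmna, Lmna-202 start: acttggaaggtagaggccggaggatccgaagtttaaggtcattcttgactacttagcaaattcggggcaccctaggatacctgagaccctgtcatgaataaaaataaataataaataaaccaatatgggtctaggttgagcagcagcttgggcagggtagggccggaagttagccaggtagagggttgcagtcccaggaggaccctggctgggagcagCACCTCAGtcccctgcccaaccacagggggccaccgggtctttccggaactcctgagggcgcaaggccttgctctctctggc
Terb1: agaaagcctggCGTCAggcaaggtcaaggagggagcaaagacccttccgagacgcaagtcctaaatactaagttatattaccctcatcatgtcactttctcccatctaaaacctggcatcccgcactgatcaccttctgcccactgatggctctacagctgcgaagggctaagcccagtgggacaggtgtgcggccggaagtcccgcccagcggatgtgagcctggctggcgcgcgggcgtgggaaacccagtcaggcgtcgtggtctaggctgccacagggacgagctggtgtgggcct
Spdya: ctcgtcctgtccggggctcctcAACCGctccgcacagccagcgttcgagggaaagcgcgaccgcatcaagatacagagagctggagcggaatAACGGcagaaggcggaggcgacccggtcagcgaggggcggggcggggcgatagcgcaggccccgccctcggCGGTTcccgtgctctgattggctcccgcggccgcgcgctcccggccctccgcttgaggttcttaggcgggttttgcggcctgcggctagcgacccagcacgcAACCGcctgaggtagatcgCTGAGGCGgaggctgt

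The promoters also differed in base composition. Spdya held 38 CG pairs in its 300 bases, Sun2 39, Sun1 36 at its upstream start and 4 at the other, and Terb1 16. Lmna held 1 CG pair at the upstream start and 7 at the start of Lmna-202, where 7 was the median of all promoters. The genes that rose the most and those that fell thus did not divide by CG content among the 5 genes with an entry.

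Other genes of the same machinery, from lists beside the 10 genes, were compared between 8 and 18 dpp, where 31.8% of all genes were called higher and 36.3% lower. All calls numbered 13889 (46.7% of them higher), and 13580 with median-of-ratios factors (55.9% higher). They numbered 14680 with quantile normalization (37.7% higher) and 14370 without mice 4 and 5 of 18 dpp (45.0% higher). These totals are the background for the recounts of each list and marker list below. Of 16 shelterin and end protection genes 4 rose and 5 fell, with a median change of 0.04 beside -0.09 for all genes. Stn1, part of the CST complex, rose by 0.86 (8.43 ± 1.19 to 16.1 ± 1.99 TPM), and Acd, which encodes TPP1, rose by 0.41. Tnks2, a tankyrase that modifies TRF1, fell by 1.13 (151 ± 2.67 to 68.8 ± 9.25 TPM), and Dkc1, a telomerase subunit, fell by 0.69. Rtel1, a telomere helicase, rose by 0.33 and Ten1, the partner of Stn1, fell by 0.68. Terf1 at 0.59 therefore stood between Stn1 and Acd. With median-of-ratios factors 8 of the 16 were called higher and 5 lower, with quantile normalization 3 and 7, and without mice 4 and 5 of 18 dpp 6 and 5 (median 0.13).

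Of 7 paralogs of the SUN and KASH genes, 6 could be tested, and 1 rose and 3 fell (median -0.42). Sun3, expressed in the male germ line, went from 0.143 ± 0.125 TPM at 8 dpp to 12.2 ± 4.88 TPM at 18 dpp, a log2 change of 3.45 (SE 0.315, adjusted p 2.4e-10). The KASH genes Syne2, Syne3 and Syne1, which tie nuclei to the cytoskeleton in many tissues, fell by 1.01, 0.86 and 0.58. Sun5 was not tested, at a mean of 0.116 TPM or less at each juvenile age and 14.7 TPM in the adult samples. Ccdc155 rose while these other KASH genes fell. With median-of-ratios factors 2 of the 6 were called higher and 3 lower, with quantile normalization 1 and 4, and without mice 4 and 5 of 18 dpp 1 and 3.

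Of 14 lamina and inner membrane genes 2 rose and 10 fell (median -0.43). Icmt, which methylates lamins and other prenylated proteins, rose by 1.63 (28.2 ± 0.967 to 89.9 ± 12.5 TPM), and Lbr, the lamin B receptor, rose by 0.43. Emd (emerin) fell by 0.92, Lmnb2 by 0.71 and Tor1aip1 by 0.65, on the side of Lmnb1 and Lmna. With median-of-ratios factors 4 were called higher and 8 lower, and with quantile normalization, and also without mice 4 and 5 of 18 dpp, 2 and 10. No gene called in these lists turned its sign under either scaling.

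Of 12 dynein and dynactin genes, the motor that KASH5 recruits, 5 rose and 5 fell (median -0.03). Dync1i2 rose by 1.15 (73.0 ± 1.71 to 164 ± 16.6 TPM), Dctn2 by 0.87 and Dync1li2 by 0.51, while Dctn1 fell by 0.97 (225 ± 3.29 to 115 ± 6.03 TPM), Dynlrb1 by 0.81 and Nde1 by 0.53. With median-of-ratios factors 6 rose and 5 fell, with quantile normalization 4 and 5, and without mice 4 and 5 of 18 dpp 5 and 5. Of 9 CDK partner and cohesin genes 6 rose and 2 fell (median 0.40). Stag3, the meiotic cohesin subunit, rose by 1.10 (124 ± 11.9 to 269 ± 44.0 TPM), Ccne2 by 1.05 and Smc1b by 0.69, while Smc3 fell by 0.75 and Rec8 by 0.36. With median-of-ratios factors 6 rose and 1 fell, with quantile normalization 5 and 2, and without mice 4 and 5 of 18 dpp 6 and 2. Cdk2, the partner of Speedy A, rose by 0.35, from 113 ± 4.26 to 144 ± 5.59 TPM, beside 3.25 for Spdya. Cdk2 was named after its values were seen, as were Sun5 and Syne4.

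**Figure D5:**
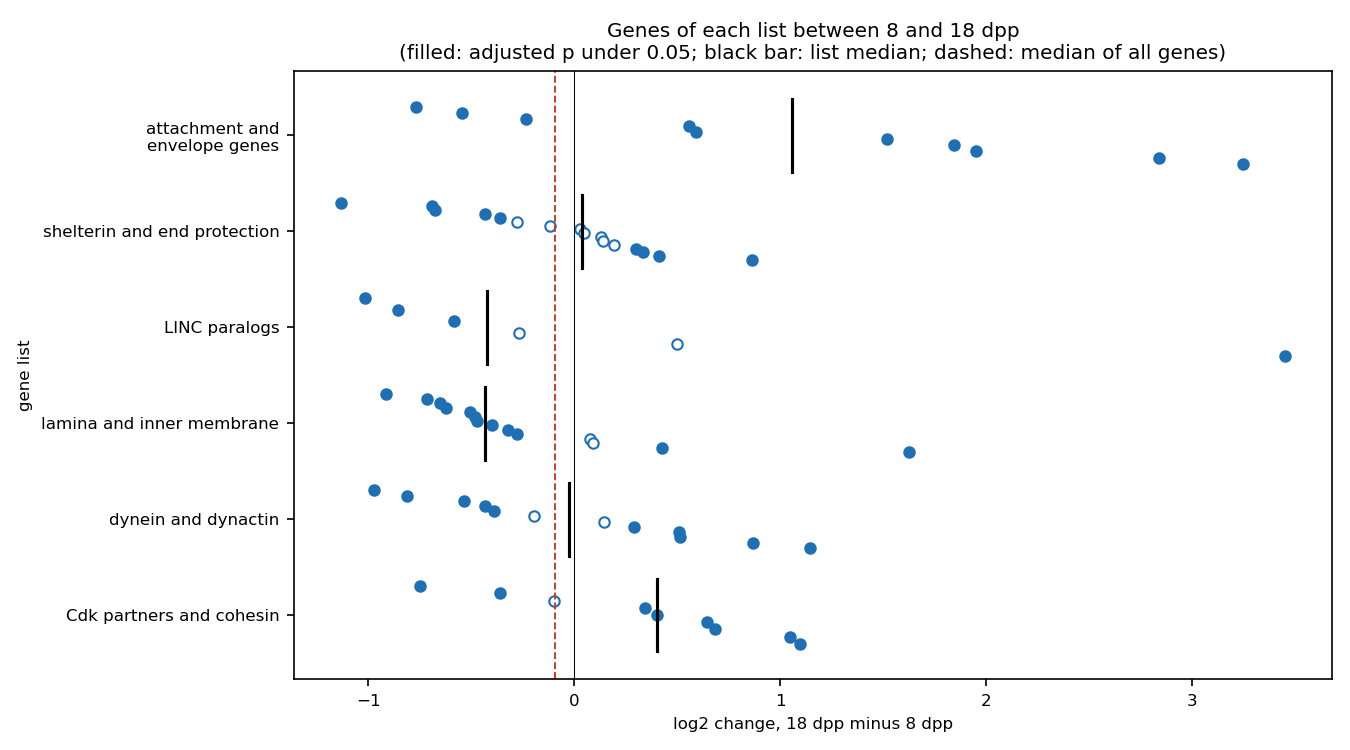
Log2 change between 8 and 18 dpp of every tested gene of each list (points, filled where the adjusted p was under 0.05), with the list's median as a black bar and the median of all genes as a dashed line. The median was 1.06 for the attachment and envelope genes and -0.43 for the lamina and inner membrane list.

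Marker genes of the cell types moved over the same span. All 8 Sertoli markers fell (median -1.40) and 7 of 8 spermatogonium markers fell (median -1.24), while 7 of 8 early spermatocyte markers rose (median 2.09) and all 6 late spermatocyte markers that could be tested rose (median 5.77). Sertoli markers, spermatogonium markers, Lmnb1 and Lmna thus moved the same way between 8 and 18 dpp. Lmna went from 65.9 to 44.9 TPM on average between 8 and 10 dpp. There the Sertoli sum went from 7291 to 7174 TPM and the spermatogonium sum from 1181 to 1096 TPM. At 18 dpp Lmna was at 45.3 TPM, where these sums were at 3636 and 570.4 TPM. The part of these markers in the fall of the lamins was not tested. Of the markers of cells outside the tubule or in its wall, 3 of 6 Leydig, 4 of 5 macrophage and 1 of 4 endothelial markers rose, 1 of 4 endothelial and 1 of 5 peritubular markers fell, and 0 of 3 tested red blood cell markers passed in limma. Without mice 4 and 5 of 18 dpp, 0 Leydig, 2 macrophage and 0 endothelial markers rose, 3 peritubular and 2 endothelial markers fell, and 6 early spermatocyte markers rose. With quantile normalization 0 Leydig, 2 macrophage and 0 endothelial markers rose, 2 peritubular, 1 endothelial and 8 spermatogonium markers fell, and 6 early spermatocyte markers rose. With median-of-ratios factors 5 macrophage markers rose and the counts of the other marker lists were the same as without those factors. The 6 spermatid markers were below the table's filter and were not tested.

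The levels of the 10 genes were set against each other over the 28 mice, as Pearson's r of log2(TPM + 1), a description over mice that share 6 ages. Spdya and Ccdc155 had r 0.98, and Spdya and Terb1 0.97. Ccdc155 had r 0.95 with each of Terb1, Terb2 and Majin, above the 0.93 of Terb1 with Terb2, the 0.94 of Terb2 with Majin and the 0.90 of Terb1 with Majin. Sun1 had its highest r with Terb2 and Ccdc155 (both 0.93). Lmnb1 ran opposite to Spdya and to Terb1 (both r -0.93), Sun2 had an r between -0.31 and 0.24 with each of the other 9 genes, and Lmna between -0.28 and 0.31. Sun2, with its peak at 12 to 16 dpp, and Lmna, with its drop at 10 dpp, were the genes apart.

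Among 14895 other genes with a symbol, the most like Spdya were Ero1lb (r 0.993), which encodes an endoplasmic reticulum oxidase, Stk33 (0.990), a kinase, and 4933416C03Rik (0.990). The most like Ccdc155 were Ybx2 (0.990), a germ cell RNA-binding protein, Brdt (0.990), the testis bromodomain protein, and Ero1lb (0.990). For Terb1 they were Ero1lb (0.976), Ppp4r4 (0.975) and the checkpoint kinase Atr (0.975), for Terb2 Dnpep (0.967), Radil (0.967) and Dnajc3 (0.966), and for Majin Dmrtc2 (0.967), Stk31 (0.966) and the testis proteasome subunit Psma8 (0.965). Sun1 was most like the meiotic helicase Hfm1 (0.960), the axis gene Sycp3 (0.956) and Dop1a (0.953), and Terf1 most like Phf10 (0.955), Rbm44 (0.952) and Pex13 (0.947). Sun2 was most like Pdia5 (0.941), Gm2a (0.934) and the laminin gene Lamb2 (0.933). Lmnb1 was most like Myl12a (0.976), Zyx (0.974) and Hspb1 (0.974), genes of the cytoskeleton and stress response, and Lmna had no gene above its r of 0.749 with Maff, followed by Ccsap (0.725) and Tnfaip3 (0.706).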

How the data were processed

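Poly-A RNA of 28 juvenile mice and of 4 adult pachytene samples was sequenced with 100 bp paired-end reads. The authors aligned reads with Bowtie 1.0.0 and estimated transcripts with RSEM 1.2.8, and the values the authors deposited are TPM per gene and per transcript. The juvenile gene table was not on that scale: its values matched the summed transcript TPM after back-conversion by TPM = 2^(ln(value + 1)) - 1, within 0.2 TPM for 20288 genes and outside it for 80. All gene values given are after that step. The tables hold no counts, so the depth per sample is unknown. The authors' substage column is their own result and was not used.

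Ages were compared in 1 model over the 28 mice with limma 3.58.1 in R 4.3.3 on log2(TPM + 1), with a prior variance that follows mean expression, for all 20368 genes, which reach 3 TPM in at least 1 mouse. The Benjamini-Hochberg adjusted p had to be under 0.05. Transcript shares, as a percentage of the gene's TPM, were compared with limma in separate models of the mice of 8 and 18 dpp and of 10 and 12 dpp, at the same adjusted p, and had to differ by at least 20 points. The adult table was normalized on its own and was given as levels only. The calculation was tested on simulated data. Tables and plots were made with Python 3.11.15 (matplotlib 3.10.9, pandas 2.3.3, numpy 2.4.6 and scipy 1.17.1), with GENCODE M21 and RefSeq promoters on GRCm38.p6.

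Every one of the 10 genes is named. Of each list of related genes (shelterin and end protection, SUN and KASH paralogs, lamina and inner membrane, dynein and dynactin, CDK partners and cohesin), at most 3 genes that rose and 3 that fell by the most between 8 and 18 dpp among those past the threshold are named. For each of the 10 genes the 3 genes with the highest correlation over the mice are named. Cell type markers were listed for spermatogonia, early and late spermatocytes, spermatids, Sertoli and peritubular cells, Leydig cells, endothelium, macrophages and red blood cells. The 10 genes and the lists were chosen with earlier results of these data known. Alternatives were a pseudocount of 0.1 or 3, no filter, a stricter filter (3 TPM in 3 mice), transcript TPM summed per gene, a constant prior variance, median-of-ratios factors, quantile normalization, only the 2 ages compared (for gene changes), mouse number as a block, mice 1 to 3 alone, other usage thresholds, and leaving out each mouse.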

Additional observations from a re-analysis of the deposited data

Results flagged for a closer look

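In each group of 4 or 5 samples, a sample was singled out when its gap to the nearest other sample was large for the range of the group. Of 85 groups 9 had such a sample, and chance does so in about 1 in 20 groups. At 10 dpp mouse 2 was apart for Lmna (56.3 TPM, the other mice 39.8 to 43.7) and for Sun2 (80.2 TPM, the others 74.8 to 76.0). At 12 dpp mouse 3 was apart for Terb2 (7.84 TPM, the others 4.56 to 4.72). At 14 dpp mouse 2 was low for Ccdc155 (19.7 TPM, the others 26.55 to 28.7) and mouse 6 was high for Spdya (32.35 TPM, the others 19.3 to 23.0). At 16 dpp mouse 4 was high for Lmna (58.5 TPM, the others 48.4 to 50.9). Adult sample 1 was high for Majin (31.1 TPM, the others 22.2 to 22.5). Among transcript shares, mouse 3 of 16 dpp was high for Sun1-201 (48.0% of Sun1 TPM, the others 30.5 to 35.4%) and mouse 4 of 12 dpp was low for Sun1-205 (9.30%, the others 14.8 to 16.6%). Some of these mice also stood at an end of the marker sums. Mouse 3 of 12 dpp had the highest early spermatocyte sum of its age (870 TPM, the others 632 to 752). At 14 dpp mouse 2 had the lowest (682 TPM, the others 839 to 951) and mouse 6 the highest (951 TPM). Mouse 2 of 14 dpp also had the highest Leydig sum (456 TPM, the others 170 to 267). No cause was tested.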

How the results depend on the processing

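The 32 changes called in the 10 genes were refitted 682 times. In 651 refits the change stayed past the threshold with its sign, in 31 it missed the threshold, and in 0 the sign turned. Of the 32 changes 26 passed in every refit. The cause was not tested for the values that follow.

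Between 8 and 10 dpp, fitting only the 2 ages gave 0 of the 10 genes and 129 genes in all, mouse number as a block gave 131 genes, and leaving out mice 4 and 5 of 18 dpp gave 398. Between 12 and 14 dpp, the genes called were 9 with a pseudocount of 3, 7 with no filter, 16 with median-of-ratios factors, 12 with quantile normalization, 6 with only the 2 ages, 0 in limma with the block (1072 at an unadjusted p under 0.05), 1 with mice 1 to 3 alone and 107 without mice 4 and 5 of 18 dpp. For transcript shares between 8 and 18 dpp, a minimum of 10 points called 1429 transcripts and the block 47. With the block Lmna-202 was past the threshold at 41.6 points (adjusted p 0.047) and Lmna-203 was not, at -41.7 points (adjusted p 0.056). There mice 4 and 5 of 18 dpp have no partner of 8 dpp, so that the shift is the one found without them. Leaving out mice 4 and 5 called 2 of the 10 genes' transcripts and 886 transcripts in all. Between 10 and 12 dpp, 10 points called 18 transcripts, a gene minimum of 10 TPM called 1 and the block 0 in limma (2340 at an unadjusted p under 0.05).

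Leaving out each mouse in turn gave these ranges. The number called among the 10 genes ran from 9 to 10 between 8 and 18 dpp, 0 to 1 between 8 and 10 dpp, 7 to 8 between 10 and 12 dpp, 0 throughout between 12 and 14 dpp, 4 to 7 between 14 and 16 dpp and 6 to 8 between 16 and 18 dpp. All genes called ran from 15200 to 15944 over the 6 ages, 12986 to 14020 between 8 and 18 dpp, 106 to 205 between 8 and 10 dpp, 3515 to 4264 between 10 and 12 dpp, 2 to 129 between 12 and 14 dpp and 9683 to 11722 between 16 and 18 dpp, and between 14 and 16 dpp stayed within 1.5 times of the count with all mice. Transcripts called ran from 555 to 791 between 8 and 18 dpp, with 0 to 3 of the 10 genes, and from 1 to 9 between 10 and 12 dpp. The median adult level of the 10 genes ran from 42.0 to 44.0 TPM.

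Mice that share a number were hardly more alike than others (median r 0.015 over 57 pairs), and number was a term only in the block alternative. The unknown depth limits what can be said of low transcripts.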
